A study of Mus musculus with 46 samples.

Results

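The cytosolic ribosome is built from a large and a small subunit, and each subunit holds ribosomal RNA and a set of ribosomal proteins. The genes of these proteins are named Rpl for the large and Rps for the small subunit, with Rplp0, Rplp1 and Rplp2 for the stalk of the large subunit and Rpsa for a small subunit protein. Members were chosen by symbol: Rpl or Rps followed by a number and at most 1 of the letters a, x or l, or 1 of the 4 symbols Rplp0, Rplp1, Rplp2 and Rpsa. Of 46264 symbols in the deposited table, 83 met the pattern, and 81 of them had at least 10 counts in at least 4 libraries. These 81 genes, 49 of the large and 32 of the small subunit, are described here, and Rpl10l and Rpl32l did not reach the count minimum. The annotation of GENCODE vM21 on the mouse assembly GRCm38 lists 79 of the 81 as protein coding, Rpl6l as a processed pseudogene and Rps4l as a transcribed processed pseudogene.

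RNA was sequenced from 46 mouse libraries of a study of intravenous immunoglobulin (IVIG, pooled antibodies given into a vein) in a model of mucous membrane pemphigoid, in which antibodies against laminin 332 separate the epithelium from its basement membrane. Mice given IVIG were compared with mice given phosphate-buffered saline (PBS) in blood (5 and 5 libraries), neutrophils (5 and 5), monocytes (3 and 5) and skin (3 and 3). A separate experiment labelled Ics had 4 libraries each at 0 h, titled unstimulated, and at 3 h and 6 h, titled as stimulated with Ics. The labels do not expand Ics, name its cells or give strain, age, sex or genotype, and the protocol names bone marrow derived neutrophils and monocytes and whole blood as sources of RNA. No unstimulated library was labelled 3 h or 6 h, so stimulation and time in culture cannot be told apart. IVIG and PBS mice share the disease model named in the series, and the labels give no doses or times.

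Library totals were 24827628 to 29502785 counts in the Ics experiment and 18965431 to 43176537 in the tissues. In 9 of the 34 tissue libraries the markers were those of another tissue than the label: 4 blood, 2 neutrophil, 1 monocyte and 2 skin libraries. They were left out of the comparisons between tissues, which used 6 blood, 8 neutrophil, 7 monocyte and 4 skin libraries, and the values with all libraries as labelled are given beside them. Titles of the tissue libraries also carry a series mark, whose meaning the labels do not give. All 4 of these skin libraries share 1 mark and all 6 blood libraries share another, while neutrophil and monocyte libraries carry several. Tissue and series are therefore partly tied together. The Ics libraries carried neutrophil markers at every time (S100a8, S100a9, Ly6g, Retnlg and Mmp8, summed level 37038 to 63129 CPM, which are counts scaled to the same library total).

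Cells make the ribosomal proteins in nearly equal numbers, and the mRNAs of mammalian ribosomal protein genes usually begin with a C followed by a run of pyrimidines, the 5' terminal oligopyrimidine motif. Through this motif their translation follows nutrient and growth signals by way of mTOR and the RNA-binding protein LARP1, largely without a change of mRNA level. RNA sequencing therefore reads the supply of these mRNAs, not their use. Mature neutrophils are known for little RNA and few ribosomes, and reticulocytes, the youngest red cells of the blood, still hold ribosomes and haemoglobin mRNA.

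The start sites of the genes that the results turn on are shown first, because a pyrimidine run at the mRNA start is known for this family. RefSeq (GRCm38.p6) held the promoter, 250 bases before to 50 bases after the start, of 59 of the 81 genes. Each line gives 14 bases before the start and 16 bases from it, 5' to 3', with the longest run of C and T near the annotated start in capitals. For a gene with several annotated starts, the start with the longest run is printed. Capitals within the first 14 bases lie before the annotated start, outside the annotated mRNA. In Rps19, Rpl10, Rpl5, Rpl27, Rplp0, Rps27l, Rpl39l and Rpl3l the whole printed run lay there.
Rps6 (chr4:86857352-86857381, minus strand): agcggaagtcgggCCTCTTTTTCgtgacgc
Rps18 (chr17:33955650-33955679, minus strand): acgtcacttccgCTCTCTCTTCCacaggag
Rps15a (chr7:118116132-118116161, minus strand): tctctttctgccaTCTTCCCTCgccggtga
Rps19 (chr7:24884578-24884607, plus strand): ccgaaaTCTCgcgagactcgacgcccgact
Rpl13a (chr7:45128730-45128759, minus strand): aaaccctgcgacaagaCCTCCTCCTTTCCC
Rps27 (chr3:90213633-90213662, minus strand): tttccgctttcgCTCCTTTCCggcggtgac
Rpl37 (chr15:5116599-5116628, plus strand): gtttcctgggcggaagCTTatccacaggaa
Rpl10 (chrX:74270802-74270831, plus strand): ttgttacagTggaagataggccgcctatat
Rpl5 (chr5:107900514-107900543, plus strand): ctcacgtcgCTTgcgtgctggtggtgctac
Rpl27 (chr11:101442231-101442260, plus strand): cgctctgTTCCTgtctgctgctcgtgctgc
Rplp0 (chr5:115559453-115559482, plus strand): tcttcgggTTTCgaggaccgcctggttctc
Rps27l (chr9:66946072-66946101, plus strand): caCTCCTCCCCgccgcctctatcccggaag
Rpl39 (chrX:37085207-37085236, minus strand): ctaagctccgCCTCTagcgacttcttctaa
Rpl39l (chr16:10170214-10170243, plus strand): tcccaggCCTTTCCggatttccggtggtcg
Rpl3l (chr17:24727812-24727841, plus strand): agtgttctagCTCTgtcatttgacctctgg
The printed runs were 14 bases long in Rpl13a, 11 in Rps18 and 10 in Rps6, against 5 in Rpl27, 4 in Rps19, 3 in Rpl37 and Rpl5, and 1 in Rpl10. A run of at least 8 pyrimidines that touched the 5 bases on either side of an annotated start was found in 23 of the 59 genes (38.98%) and in 3068 of all 27025 genes of the table (11.35%). The motif CCGGAAG, the core bound by ETS factors, was found on either strand of the promoter in 25 of the 59 (42.37%) and in 2683 of all genes (9.93%). TATAAA on the sense strand, 40 to 15 bases before the start, was found in none of the 59 and in 2.41% of all genes. A match is a description of these letters, and an annotated start can lie some bases from the one the cell uses.

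The coding sequence of Rps27 is shown because its row and that of its copy Rps27rt exchange places in blood. Rps27 (chr3:90212522-90213651, minus strand, GRCm38) and Rps27rt (chr9:114982366-114982739, minus strand) had the same coding sequence in GENCODE vM21, with 0 mismatches, so reads of the coding part cannot tell them apart. The paralog Rps27l differed from it at 61 bases (76.08% identity). The first 90 bases follow, 5' to 3', with bases of Rps27l that differ from Rps27 in capitals.
Rps27 and Rps27rt: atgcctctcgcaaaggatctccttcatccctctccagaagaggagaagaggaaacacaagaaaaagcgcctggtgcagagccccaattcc
Rps27l: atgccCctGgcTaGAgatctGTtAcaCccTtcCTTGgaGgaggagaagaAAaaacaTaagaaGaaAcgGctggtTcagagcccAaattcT
The printed stretch differs at 24 bases, spread along its whole length.

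The 81 genes together held less than 1% of the counts in every Ics library and more in neutrophils, monocytes and skin. Their summed share was 0.831%, 0.709%, 0.670% and 0.714% of counts in the 4 libraries at 0 h. At 3 h it was 0.759%, 0.730%, 0.603% and 0.719%, and at 6 h 0.835%, 0.723%, 0.753% and 0.754%. The 3 times overlapped. In libraries whose markers matched their label the share was 2.40% to 5.09% in neutrophils, 1.40% to 7.17% in monocytes and 7.61% to 11.8% in skin. The Ics libraries thus lay below every neutrophil library, although both carried neutrophil markers, and they come from separate experiments. Blood had 0.253% to 0.699%, of counts that were 89.2% to 93.9% haemoglobin, and 4.15% to 6.46% once haemoglobin genes were left out. In the monocyte libraries 3.68% to 82.7% of counts were mitochondrial, and the library with 82.7%, PBS replicate 3, had the lowest share of ribosomal protein counts. In these bulk samples fewer cells of a type and less RNA per cell cannot be told apart.

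**Figure D1:**
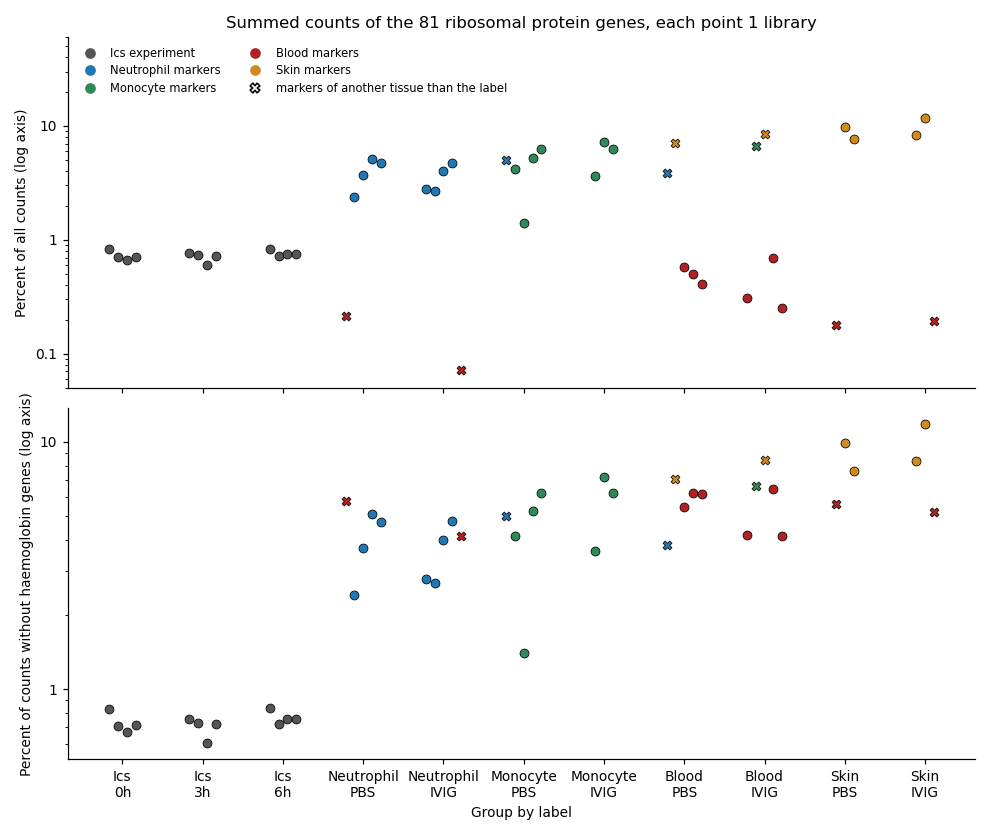
Summed counts of the 81 ribosomal protein genes as a percentage of all counts (top) and of counts without haemoglobin genes (bottom), on log axes, for each library by labelled group. Each point is 1 library, its colour gives the tissue of its markers and crosses mark libraries whose markers differ from the label. The 12 Ics libraries lie between 0.603% and 0.835% in the top panel, and in the bottom panel the blood libraries with matching markers lie between 4.15% and 6.46%, below every skin library with matching markers.

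The Ics libraries ask how these genes differed between 3 h and the unstimulated state. Of 80 genes tested, 21 rose and 2 fell (edgeR, adjusted p under 0.05 over all genes), which is 26.25% rising, against 26.9% rising and 27.5% falling among all 14996 genes tested. Leaving out 1 library put the rising members between 16 and 40, with 40 without the third 3 h library and 37 without the first 0 h library. The median change of the members was 0.16 on the log2 scale, against -0.06 for all genes tested. This direction depends on the scaling: with library totals in place of TMM factors, the members' median was -0.09 and that of all genes -0.30. With totals 3 members rose and 5 fell, against 18.0% rising and 42.3% falling of all genes. The distance between both medians was 0.22 in either case, and 72 of the 80 members were above the median of all genes under both scalings. Changes are given on the TMM scale below, and are best read relative to that median.

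Among the genes of the small subunit, Rps27 and Rps13 had the largest rises at 3 h. Rps27, a zinc-binding protein of the small subunit, had 126, 117, 95.1 and 116 CPM at 0 h and 159.9, 174, 149.9 and 161 CPM at 3 h. The lowest 3 h value exceeded the highest 0 h value, a log2 rise of 0.50 ± 0.086 (SE, n = 4 and 4, edgeR adjusted p = 0.0001654). At 6 h Rps27 had 149, 150.2, 182 and 163 CPM, again above every library at 0 h. Rps13 had 69.3, 64.0, 65.5 and 64.1 CPM at 0 h and 95.7, 98.5, 77.5 and 92.2 CPM at 3 h, a rise of 0.47 ± 0.082 without overlap (edgeR adjusted p = 0.0002034). Rps6, the substrate of the S6 kinases below mTOR, rose by 0.21 ± 0.081 at 3 h (edgeR adjusted p = 0.03729), from 160.4, 131, 130.3 and 133 CPM to 172, 169, 138 and 163 CPM. Its groups overlapped, because the first library at 0 h and the third at 3 h lay near the other time. With library totals alone Rps6 had a change of -0.03.

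Among the genes of the large subunit, Rpl10, Rpl37 and Rpl9 rose most at 3 h. Rpl37 had 114, 114, 106 and 123 CPM at 0 h, 153, 163, 136 and 168 CPM at 3 h and 184, 160.1, 186 and 173 CPM at 6 h. Both later times were above every library at 0 h, with a rise of 0.44 ± 0.072 at 3 h (edgeR adjusted p = 0.0001212) and of 0.62 ± 0.072 at 6 h (edgeR adjusted p = 3.698e-06). Rpl9 had 172, 160.5, 144 and 156 CPM at 0 h and 212, 225, 187 and 213 CPM at 3 h, a rise of 0.41 ± 0.067 without overlap. Rpl10, a protein that joins the large subunit late in its assembly, had 65.3, 46.4, 35.1 and 49.7 CPM at 0 h and 72.9, 65.2, 58.7 and 79.2 CPM at 3 h. It rose by 0.49 ± 0.158 (edgeR adjusted p = 0.01676), and its groups overlapped through the first library at 0 h. The other rising members had changes between 0.20 (Rpl6) and 0.35 (Rps20).

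At 6 h against 0 h, 39 of the 80 members rose and 4 fell (edgeR), which is 48.75% rising, against 29.6% rising and 30.4% falling of all genes. Their median change was 0.21, against -0.06 for all genes tested. With library totals alone 18 rose and 5 fell, against 23.0% rising and 38.5% falling of all genes. The medians were then 0.05 and -0.22, and 68 of 80 members lay above the median of all genes. The 6 h values lay wholly over the 0 h values in 28 of the 80 members, against 27.66% of all genes, and wholly under them in 3, against 27.64%. At 3 h against 0 h these counts were 8 and 2, against 24.78% and 24.93% of all genes, and at 6 h against 3 h they were 6 and 2, against 18.88% and 18.27%. Leaving out replicate 2, 3 or 4 at 6 h left 2 members that fell from 0 h to 6 h. Of the 80 genes, 19 rose at 3 h and also at 6 h against 0 h, 20 rose at 6 h against 0 h without passing the test at 3 h, 2 rose at 3 h alone, and 33 did not pass in any of the 3 comparisons of times. These patterns were not counted over all genes, and the comparisons share libraries, so they do not set the members apart. Between 3 h and 6 h, 8 members rose and 2 fell, against 20.5% rising and 20.3% falling of all genes. The median difference was 0.04 for members and -0.03 for all genes. With library totals alone 19 rose and 1 fell, against 26.0% rising and 16.2% falling of all genes. With TMM factors, leaving out 1 library gave 4 rising without the third 3 h library and 5 without the first 6 h library. It gave 13 without the first 3 h or the second 6 h library. Without replicate 3 at 3 h or replicate 4 at 6 h, 1 member fell. Rpl30 had 96.8, 95.2, 77.1 and 83.8 CPM at 3 h and 109, 97.2, 112 and 113 CPM at 6 h, a rise of 0.29 ± 0.075 without overlap (edgeR adjusted p = 0.006855). The pseudogene row Rps4l fell by -0.43 ± 0.137 (edgeR adjusted p = 0.02054), from 5.23 to 5.87 CPM to 3.79 to 4.68 CPM.

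**Figure D2:**
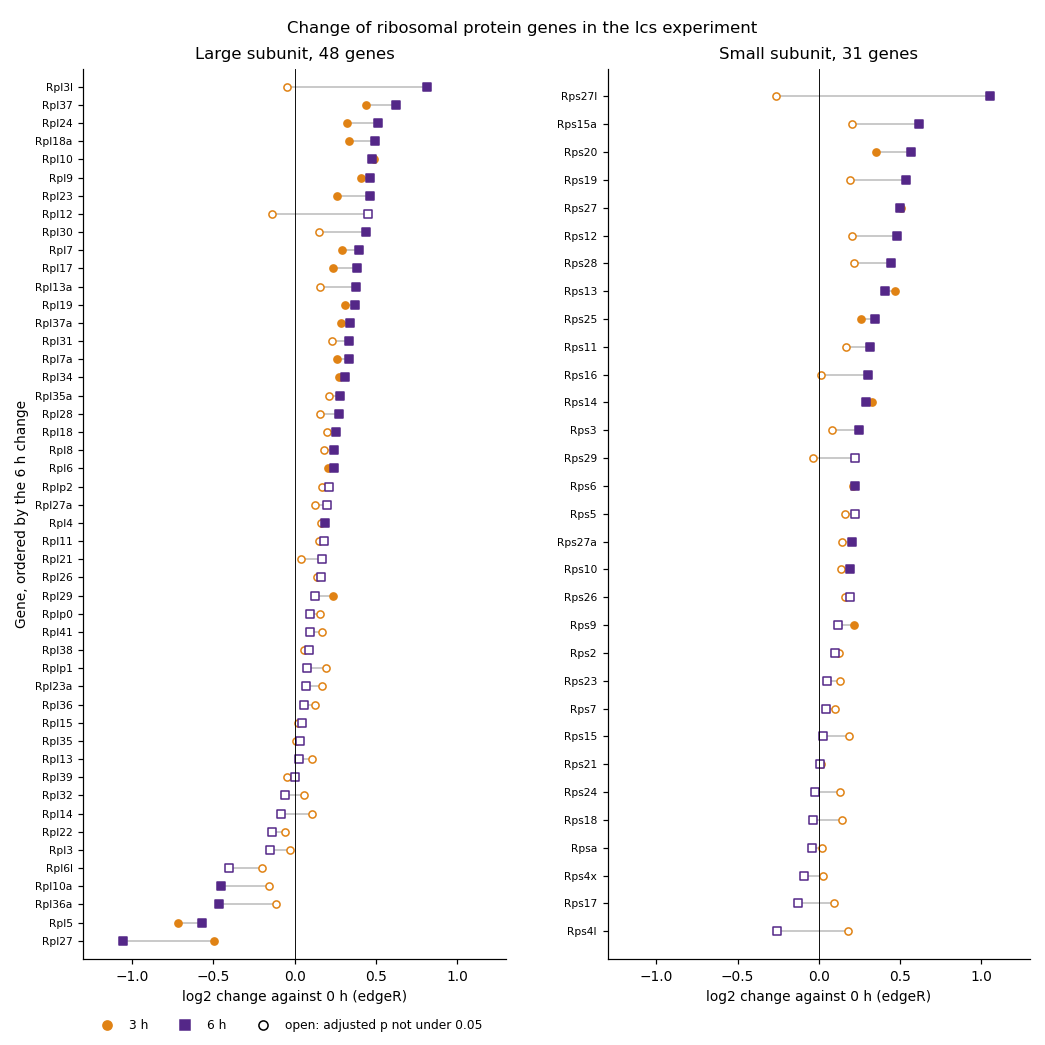
Log2 change of tested ribosomal protein genes at 3 h (circles) and 6 h (squares) against 0 h in the Ics experiment, from edgeR with TMM factors, for 48 large subunit genes (left) and 31 small subunit genes (right). Filled symbols have an adjusted p under 0.05, and grey lines join the 2 times of a gene. Most symbols lie between 0 and 0.5, Rps27l and Rpl3l stand out at 6 h, and Rpl27 and Rpl5 lie lowest; with library totals alone the members' median at 3 h is -0.09.

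The largest change among the small subunit genes at 6 h was in Rps27l, a paralog of Rps27 that is a target of p53 in human and mouse cells. Rps27l had 12.7, 10.1, 9.26 and 10.2 CPM at 0 h, 8.75, 10.8, 6.91 and 8.83 CPM at 3 h and 23.7, 18.8, 23.3 and 22.1 CPM at 6 h. The 6 h libraries stood above all others, with a rise of 1.06 ± 0.135 from 0 h (edgeR adjusted p = 9.78e-06) and of 1.32 ± 0.138 from 3 h (edgeR adjusted p = 3.175e-06). At 3 h its difference from 0 h was -0.26 ± 0.138 (edgeR adjusted p = 0.1253). Rps27 itself had a log2 change of 0.50 at 3 h and of 0.50 at 6 h, and the difference between the paralogs was not tested.

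Rps20, Rps15a and Rps19 rose at 6 h. Rps20 had 40.4, 32.3, 33.8 and 38.7 CPM at 0 h and 62.8, 47.5, 60.9 and 44.01 CPM at 6 h, a rise of 0.57 ± 0.135 without overlap (edgeR adjusted p = 0.00217). Rps15a had 41.02, 38.1, 40.4 and 35.9 CPM at 0 h and 83.1, 49.8, 50.5 and 54.7 CPM at 6 h, a rise of 0.62 ± 0.139 (edgeR adjusted p = 0.001484). Its first library at 6 h stood far above the other 3, and leaving out single libraries put the rise between 0.44 and 0.72. Rps19, which is mutated in human Diamond-Blackfan anaemia, had 59.2, 41.6, 37.7 and 38.4 CPM at 0 h and 71.0, 56.7, 66.0 and 63.2 CPM at 6 h. It rose by 0.54 ± 0.155 (edgeR adjusted p = 0.007886), and its groups overlapped through the first library at 0 h. That library was also the highest of its group in Rpl36a (32.9 CPM against 19.2 to 22.8) and in Rpl10a (33.2 against 19.0 to 22.0). Both genes fell at 6 h, by -0.47 ± 0.178 (edgeR adjusted p = 0.03567) and -0.45 ± 0.188 (edgeR adjusted p = 0.04973), with overlapping groups, and neither call held without each library in turn (highest adjusted p = 0.157 and 0.215).

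The 4 genes Rpl13a, Rplp0, Rps18 and Rpsa, of which several are used as references in expression studies, had different values. Rpl13a, known in human monocytic cells as part of a complex that silences inflammatory mRNAs, had 126, 119, 109 and 119.5 CPM at 0 h, 144, 139, 107 and 139 CPM at 3 h and 167, 142, 153 and 154 CPM at 6 h. It rose by 0.38 ± 0.085 at 6 h without overlap (edgeR adjusted p = 0.001424), and its 3 h change was 0.16 (edgeR adjusted p = 0.1373). Rplp0, the base of the ribosomal stalk, had 219, 187, 180.2 and 187 CPM at 0 h and 219, 196, 207 and 204 CPM at 6 h, a change of 0.10 ± 0.079 (edgeR adjusted p = 0.3131). At 3 h its change was 0.15 (edgeR adjusted p = 0.1141), and with the title numbers as a block it passed the test (edgeR adjusted p = 0.04296). Rps18 had a change of -0.03 ± 0.143 at 6 h (edgeR adjusted p = 0.8498), with 36.1 to 58.4 CPM at 0 h and 38.9 to 50.5 CPM at 6 h. Rpsa, the protein once described as a laminin receptor, had -0.04 ± 0.128 (edgeR adjusted p = 0.7989), with 136 to 171 CPM at 0 h and 119.9 to 180.5 CPM at 6 h. A p above the limit does not show that these genes stayed the same, and the library totals alone shift all 4 downward.

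**Figure D3:**
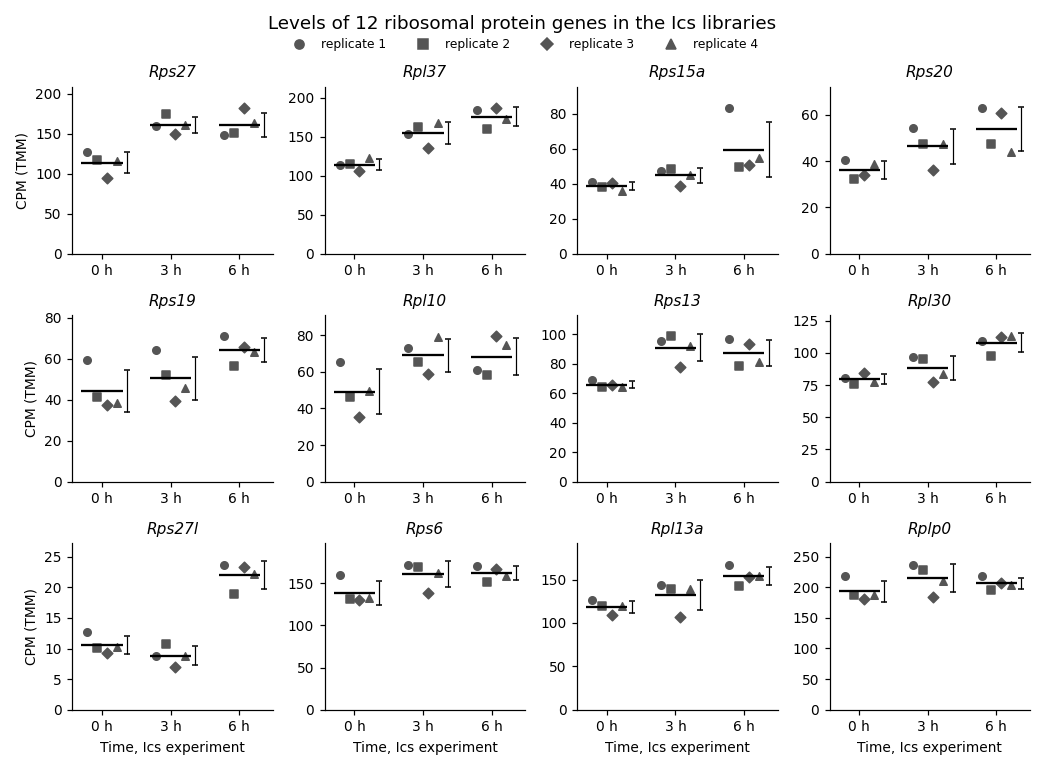
Levels of 12 ribosomal protein genes in CPM with TMM factors at 0, 3 and 6 h of the Ics experiment. Symbols mark the 4 replicates of each time, the black line is their mean and the bar at its right is 1 SD to either side. Rps27 and Rpl37 are higher at both later times, Rps27l has 18.8 to 23.7 CPM at 6 h against 6.91 to 12.7 CPM before, and Rplp0 overlaps at all 3 times.

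On the TMM scale both subunits had medians above 0. At 3 h, 14 of 48 large subunit genes rose (29.17%) and 2 fell, and 7 of 32 small subunit genes rose (21.88%) and none fell (median changes 0.16 and 0.16). Both rising shares were near the 26.9% of all genes. At 6 h against 0 h, 22 rose (45.83%) and 4 fell in the large and 17 rose (53.12%) and 0 fell in the small subunit (medians 0.19 and 0.22), against 29.6% of all genes rising. The ratio of summed large to summed small subunit CPM was 1.32 to 1.35 at 0 h, 1.34 to 1.37 at 3 h and 1.36 to 1.41 at 6 h. The 0 h and 6 h ranges did not overlap, and their group means differed by 0.05 on the log2 scale; taken as a median over members, the difference was -0.03, so no direction is given for the subunits. In marker-matched libraries the ratio was 1.36 to 1.45 in neutrophils, 1.44 to 1.54 in monocytes, 1.43 to 1.47 in skin and 1.23 to 1.69 in blood. Blood thus spread more widely than all the other tissues together.

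The only members whose rows fell at both times, Rpl5 and Rpl27, lost that direction when near-identical rows were counted with them. Rpl5 (chr5:107900502-107909005, plus strand), which carries the 5S ribosomal RNA into the large subunit, had 8.58, 7.75, 10.5 and 7.49 CPM at 0 h and 5.82, 4.46, 4.88 and 5.63 CPM at 3 h, a fall of -0.72 ± 0.137 (edgeR adjusted p = 0.0004321). The row Gm15500, whose sequence is nearly that of Rpl5, had a mean of 80.6 CPM over all counts at 0 h, and the Rpl5 row held 10.5%, 5.80% and 6.04% of the family at 0, 3 and 6 h. With the copies added the change at 3 h was 0.13 (edgeR adjusted p = 0.1971) and at 6 h 0.22 (edgeR adjusted p = 0.0322). Rpl27 (chr11:101442298-101445529, plus strand) went from 5.52, 4.40, 5.83 and 6.25 CPM at 0 h to 3.05, 2.44, 2.92 and 2.15 CPM at 6 h, a fall of -1.06 ± 0.155 (edgeR adjusted p = 3.558e-05). Its pseudogene row Rpl27-ps3 had a mean of 104 CPM at 0 h, and with copies added the change was 0.17 (edgeR adjusted p = 0.151). Rpl12 rose from 3 h to 6 h by 0.59 ± 0.205 in its own row (edgeR adjusted p = 0.03187), and had -0.11 with its copies.

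How far this splitting reaches was measured on the transcripts. Of 31-base words in each gene's transcripts, a median of 57.59% occurred in no other gene, and 28 of 81 members had fewer than 50%. A further 278 rows, of pseudogenes or protein-coding genes, had a transcript of whose own words at least 50% occurred in a member, and 67 members had such a copy. In the Ics libraries 7 members held less than 50% of the counts of their family, against 13 in blood. The copies come from the authors' estimated counts, and a count of 1 such row cannot be assigned to a gene with certainty. With copy rows added, 24 members rose and 0 fell at 3 h, against 26.9% rising and 27.6% falling of all genes. At 6 h against 0 h, 41 rose and 2 fell, against 29.6% and 30.5% of all genes.

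**Figure D4:**
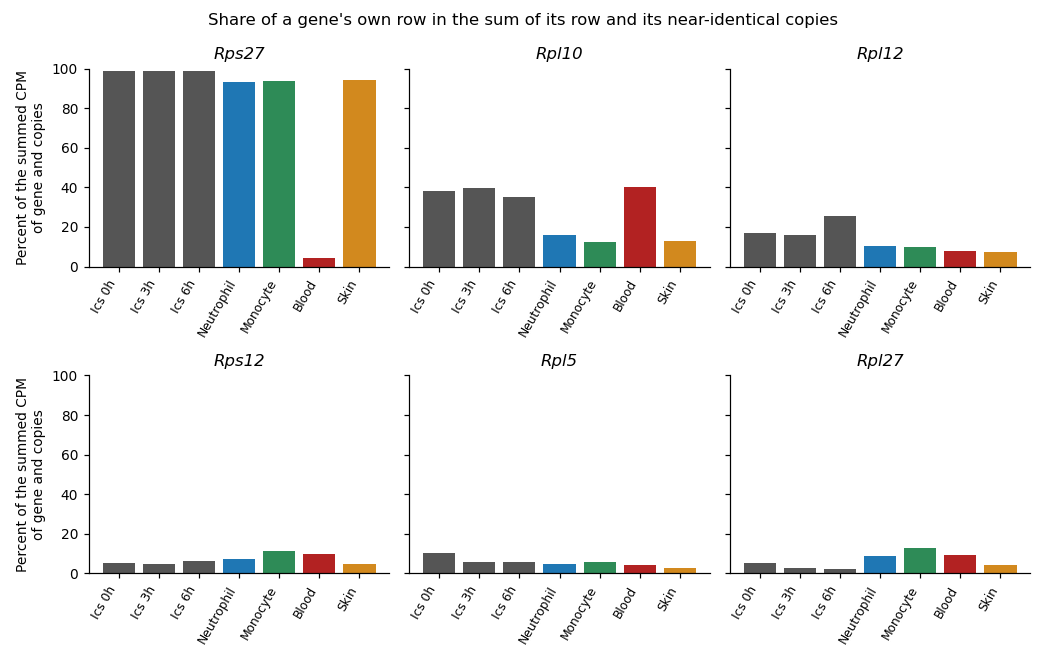
Percentage of the summed CPM of a gene and its near-identical copy rows that lay in the gene's own row, summed over the libraries of each Ics time and of each tissue with matching markers, for 6 genes. Rps27 holds over 93% everywhere but in blood, where it holds 4.38%, and the rows of Rpl5, Rpl27 and Rps12 hold the smaller part in every group shown.

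Other genes of the ribosome and of translation were counted from fixed lists. Of 38 elongation and initiation factors, 20 rose (52.63%) and 3 fell (7.89%) at 3 h, against 26.9% and 27.5% of all genes. At 6 h against 0 h, 28 rose (73.68%) and 3 fell (7.89%), against 29.6% and 30.4% of all genes (edgeR). Their median at 6 h was 0.45, against -0.06 for all genes. Eef1a1, which brings aminoacyl-tRNA to the ribosome, went from 603 ± 37.9 CPM at 0 h to 1215 ± 63.7 at 3 h and 1412 ± 110 at 6 h (SD, n = 4 each). Eif4b, a helper of the cap-binding helicase, rose by 1.07 at 3 h and 1.59 at 6 h, and Eef2, the translocase, by 0.83 at 6 h. Like the mRNAs of ribosomal proteins, those of Eef1a1 and Eef2 are known to carry the pyrimidine run.

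Genes that assemble ribosomes were counted next. Of 39 tested genes for ribosomal RNA synthesis and assembly, 8 rose and 11 fell at 3 h, which is 20.51% and 28.21%, against 26.9% and 27.5% of all genes. At 6 h against 0 h, 6 rose (15.38%) and 19 fell (48.72%), against 29.6% and 30.4% of all genes (edgeR), with a median of -0.26. Nop58, a core protein of the particles that methylate ribosomal RNA, fell by -1.72 ± 0.184 at 6 h, from 11.2 ± 0.941 to 3.39 ± 0.819 CPM. Nolc1, a nucleolar chaperone, fell by -1.37 ± 0.203, and Ltv1, needed to mature the small subunit, by -0.88 ± 0.126. Nhp2, a protein of pseudouridylation particles, rose by 1.21 ± 0.154, from 5.87 ± 0.921 to 13.6 ± 0.297 CPM. Of 77 mitochondrial ribosomal proteins, 8 rose (10.39%) and 24 fell (31.17%) at 3 h, so the falling share was near the 27.5% of all genes. At 6 h 17 rose (22.08%) and 25 fell (32.47%), against 29.6% and 30.4% of all genes, with a median of -0.22. Of 80 cytosolic ones, 39 rose and 4 fell at that time.

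Of 20 regulators of ribosomal protein mRNAs, 7 rose and 4 fell at 3 h, and 7 rose and 4 fell at 6 h against 0 h. At 6 h Larp4b, an RNA-binding protein of the LARP family, rose by 0.75 ± 0.069 and Eif4ebp1, the cap-binding repressor below mTOR, by 0.90 ± 0.084. Cnbp, which binds pyrimidine-rich leaders, fell by -0.79 ± 0.067. Of 15 genes of the integrated stress response, 9 rose and 1 fell at 3 h and 11 rose and 1 fell at 6 h. Slc7a11, the cystine importer, went from 108 ± 8.36 to 1634 ± 148 CPM at 6 h, and Ddit3, a stress transcription factor, from 41.2 ± 1.81 to 129 ± 14.7. Of 7 ribosomal proteins that the name pattern misses, 3 rose and 1 fell at 6 h: Rpl7l1 by 0.51, Fau by 0.30 and Rps3a1 by 0.26 rose, and Rpl36al fell by -0.54. All lists were compared only as counts beside the background of all genes. It was 26.9% rising and 27.5% falling at 3 h, and 29.6% rising and 30.4% falling at 6 h against 0 h.

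Markers of other cells moved over the same times. The summed level of 4 reticulocyte markers fell from 29.6 to 69.8 CPM at 0 h to 2.85 to 7.497 at 3 h and 1.74 to 2.51 at 6 h, and none of them was at 0 in any library. That of 4 platelet markers went from 19.5 to 31.1 CPM to 2.92 to 7.17 and 3.65 to 7.71, with up to 2 markers at 0. Neutrophil markers went from 55467 to 63129 CPM to 39073 to 47508 and 37038 to 42220, and monocyte markers from 13938 to 15419 CPM to 7860 to 9572 and 7733 to 8830. Lymphocyte markers spanned 282 to 1153, 140 to 695 and 122 to 522 CPM at the 3 times, with overlap. Their part in the changes of the ribosomal protein genes was not tested.

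Between tissues, the share of each gene in the ribosomal protein total was compared so that haemoglobin and mitochondrial counts do not enter. In their own rows, 76 genes had a median share of at least 0.1% in 1 tissue. Of these, 15 had a highest tissue median within 1.5 times the lowest and 24 within 1.5 to 2 times. Another 33 lay within 2 to 4 times and 4 above that. With copy rows added, 77 genes met the minimum share, and the 4 counts were 16, 30, 29 and 2. The spread between tissues therefore depends on whether copies are counted. The shares that follow are of own rows too. The 10 genes with the most counts held 31.9% of the total in the Ics libraries, 28.4% in neutrophils, 27.5% in monocytes, 31.7% in blood and 23.9% in skin. Rps9, chosen after its values were seen, held 7.52% of the total in the Ics libraries, 4.39% in neutrophils, 3.22% in monocytes, 2.52% in blood and 2.26% in skin. These are shares of counts, which depend on transcript length, so they compare tissues and not genes with each other.

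Monocytes were compared with neutrophils in 7 libraries labelled monocyte that met no other tissue's marker limit and 8 neutrophil libraries. The 7 were not required to pass a monocyte limit. Their 6 monocyte markers were all detected, with a summed level of 11890 to 27186 CPM of counts without haemoglobin and mitochondrial genes, which overlapped the 10967 to 18785 CPM in neutrophils. Of 80 genes tested, 33 were higher in monocytes and 0 lower (edgeR, adjusted p under 0.05), against 8.97% higher and 15.4% lower of 14232 genes tested. The median difference was 0.58 on the log2 scale for members and -0.02 for all genes, and 78 of 80 members were above 0. With library totals alone no member was called in either direction, against 2.09% higher and 7.79% lower of all genes. Without the libraries with 25% or more mitochondrial counts 6 were higher and 2 lower, and with all libraries as labelled 4 were higher. With the series mark and number of the titles as a block, 0 members were called. The labels do not say what this number marks, and a number titled IVIG in neutrophils was titled PBS in monocytes. Only libraries whose number occurs in both tissues add to the difference in that fit. Most monocyte and neutrophil libraries had no such partner, so the block compares fewer libraries. Leaving out 1 library gave 14 higher without neutrophil IVIG replicate 2, 15 without replicate 1 and 21 without replicate 3 of that group. It gave 18 without neutrophil PBS replicate 2, 20 without PBS replicate 3 and 20 without monocyte IVIG replicate 2. DESeq2 called 62 higher.

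Rps19 was the member with the clearest separation. It had 505, 1080.1 and 504 CPM in monocytes of IVIG mice and 638, 927, 464 and 483 CPM in those of PBS mice. In neutrophils it had 272, 247, 335 and 378 CPM under IVIG and 256, 278, 430.0 and 355 CPM under PBS. Every monocyte library was above every neutrophil library, a difference of 1.04 ± 0.211 (edgeR adjusted p = 0.001443), and with the block it was 0.68 (edgeR adjusted p = 0.1695). Of the 80 members it was the only 1 without overlap between these cells, against 1.54% of all genes wholly above and 11.33% wholly below. Rplp2, a stalk protein, differed by 1.26 ± 0.410 (edgeR adjusted p = 0.03252), with 793, 1243 and 4568 CPM as the lowest, median and highest monocyte value and 337, 702 and 1426 CPM in neutrophils. Rpl38, which in mouse embryos is needed to translate Hox mRNAs, differed by 1.11 ± 0.305 (edgeR adjusted p = 0.01252), with a median of 523 against 244 CPM. Rps12 differed by 1.27 ± 0.376 (edgeR adjusted p = 0.01957), and by 0.45 once its copies were added (edgeR adjusted p = 0.1856). Of the genes given in every comparison, Rpl13a (1.04), Rps6 (0.85), Rplp0 (0.69) and the paralog Rps27l (0.55) were also higher in monocytes, while Rpsa (0.67) and Rps18 (0.59, edgeR adjusted p = 0.05384) did not pass. The summed neutrophil markers were 968 to 15211 CPM in the monocyte libraries and 43170 to 92973 in neutrophils, and Csf1r, a monocyte receptor, was at 25.4 to 864.5 CPM in monocytes and 155 to 269 CPM in neutrophils. The lowest value was in PBS replicate 3, the library with 82.7% mitochondrial counts, and lay below every neutrophil library. Their part in these differences was not tested.

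Blood was compared with neutrophils in 6 and 8 libraries. Of 80 members tested, 44 were higher in blood and 6 lower (edgeR), against 28.7% higher and 35.5% lower of 14044 genes. The members' median difference was 0.52, that of all genes -0.14. With library totals alone 1 member was higher and 79 lower, against 3.80% higher and 93.1% lower of all genes. Haemoglobin takes most counts in blood, and the median of all genes then moves to -3.82. Members lay 0.66 above the median of all genes with TMM factors. With all libraries as labelled 10 were higher and 0 lower, and with the block 26 were higher and 11 lower. A number of that block was titled PBS in blood and IVIG in neutrophils. Blood carried reticulocyte markers at 41227 to 59812 CPM of counts without haemoglobin and mitochondrial genes, against 7.99 to 244 in neutrophils, and platelet markers at 6790 to 11669. The part of these cells in the differences was not tested.

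Rps24 and Rpl41 were higher in blood without overlap. Rps24, a small subunit protein, had 376, 718 and 878 CPM as lowest, median and highest value in blood and 125, 163 and 226 CPM in neutrophils, a difference of 1.95 ± 0.206 (edgeR adjusted p = 1.832e-07). Rpl41, the smallest protein of the large subunit, had 723, 846 and 1276 CPM against 174, 261 and 339 CPM, a difference of 1.86 ± 0.204 (edgeR adjusted p = 3.08e-07). Rplp0 and Rpl13a were also higher, by 1.32 and 1.59, and Rpsa had a difference of 0.02 ± 0.254 (edgeR adjusted p = 0.9593).

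Some rows differed between single blood libraries. Rpl10 had 359, 301 and 316 CPM in blood of IVIG mice and 46.9, 215 and 34.4 CPM in PBS mice, against 18.3 to 38.4 CPM in neutrophils. Its difference was 2.87 ± 0.426 (edgeR adjusted p = 1.221e-05) and 1.45 with its copies, and 2 blood libraries lay near the neutrophils. The copy row Rpl10-ps1 had a mean of 47.4 CPM over all counts in blood and was at 0 in the other tissues. Rpl6l, listed as a processed pseudogene, had 18.0, 0 and 30.3 CPM in IVIG and 0, 19.1 and 19.7 CPM in PBS blood, against 0.0643 to 0.170 CPM in neutrophils. Its blood values were either 0 or at least 18.0, with none between.

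Rps27 and Rps27rt changed places in blood. Rps27 had 60.4, 11.7, 7.97, 10.8, 8.16 and 7.27 CPM in the 6 blood libraries and 70.9 to 128 CPM in neutrophils, a lower level by -2.51 ± 0.436 (edgeR adjusted p = 6.785e-05). Over all counts, Rps27 had 12.28, 3.70, 1.13, 3.42, 1.90 and 1.497 CPM and Rps27rt 31.9, 143.6, 38.4, 105, 107 and 96.5 CPM in the same libraries. With Rps27rt added the difference was 1.80 in the opposite direction (edgeR adjusted p = 2.029e-07). The row alone therefore gives no direction for the protein's mRNA. Rps6 likewise was lower by -0.52 in its own row (edgeR adjusted p = 0.04901) and higher with its copies (1.148). Rps27a, made as a fusion with ubiquitin, was lower by -0.67 ± 0.202 (edgeR adjusted p = 0.007981), and by the same amount with copies added.

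Skin was compared with monocytes in 4 and 7 libraries. The skin libraries all share 1 series mark of the titles and the monocyte libraries carry several, so tissue is partly tied to series. Of 80 members tested, 29 were higher in skin and 3 lower (edgeR), against 25.4% higher and 14.6% lower of 16703 genes. The median difference of 0.50 for members stood beside 0.29 for all genes. With the block 3 were higher and 0 lower, with all libraries as labelled 16 and 0, and without the second IVIG skin library 11 were higher. The block again rests only on libraries whose title number occurs in both tissues, and most monocyte libraries had no such partner. Without skin IVIG replicate 1 or skin PBS replicate 3, 1 was lower. Rpl32 had 1474 to 2285 CPM in skin and 507 to 1002 CPM in monocytes, a difference of 1.305 ± 0.245 (edgeR adjusted p = 0.0009832), and with the block its adjusted p was 0.1133 (edgeR). Rpl31 had 184 to 291 CPM in skin and 75.7 to 123.5 CPM in monocytes, a difference of 1.36 ± 0.195 (edgeR adjusted p = 0.0001686). Both were without overlap. Rplp2 was lower in skin, with 451 to 723 CPM against 922 to 4406 CPM, by -1.75 ± 0.473 (edgeR adjusted p = 0.01023), and with the block its adjusted p was 0.1336 (edgeR). Rplp0, its partner in the stalk, had a difference of 0.11 ± 0.248 (edgeR adjusted p = 0.7589).

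The paralogs Rpl39l and Rps27l were higher in skin. Rpl39l, a paralog of Rpl39 known from testis, had 36.1, 36.7, 25.0 and 23.1 CPM in the 4 skin libraries and 0 to 1.78 CPM in monocytes, a difference of 5.98 ± 0.977 (edgeR adjusted p = 0.0004229). Over all counts it was at most 0.678 CPM in the Ics libraries and at most 0.511 CPM in neutrophils, and listed at 0 in 5 of 6 blood libraries. Rpl39 itself had 665 to 1363 CPM over all counts in skin. Rps27l had 140 to 230 CPM in skin and 61.7 to 88.8 CPM in monocytes, a difference of 1.43 ± 0.192 (edgeR adjusted p = 0.0001073). Over all counts its median was 274 CPM in skin, 78.7 in monocytes, 48.99 in neutrophils and 1.23 in blood.

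In the skin libraries Rpl3l, the paralog of Rpl3 in heart and skeletal muscle, varied with muscle genes. Over all counts it had 2.26, 0.788, 0.134 and 17.4 CPM in the 4 skin libraries, in which Acta1, the actin of skeletal muscle, had 123, 37.1, 7.74 and 1126 CPM. The highest and the lowest library were the same for both genes. Its difference from monocytes was 3.52 ± 1.203 (edgeR adjusted p = 0.03316), with overlap, and -0.27 with the block. In the Ics experiment it rose at 6 h by 0.82 ± 0.217 (edgeR adjusted p = 0.004781), from 0.754 to 1.33 CPM at 0 h to 1.45 to 1.91 CPM at 6 h. Over all counts, mean Acta1 there was 0.102 CPM at 0 h and 0.0444 CPM at 6 h. Mean Ckm, muscle creatine kinase, was 0.572 and 0.506 CPM, and mean Rpl3l 1.05 and 1.65 CPM on the same scale. All 3 levels are low, and a part of muscle RNA in the Rpl3l change was not tested.

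**Figure D5:**
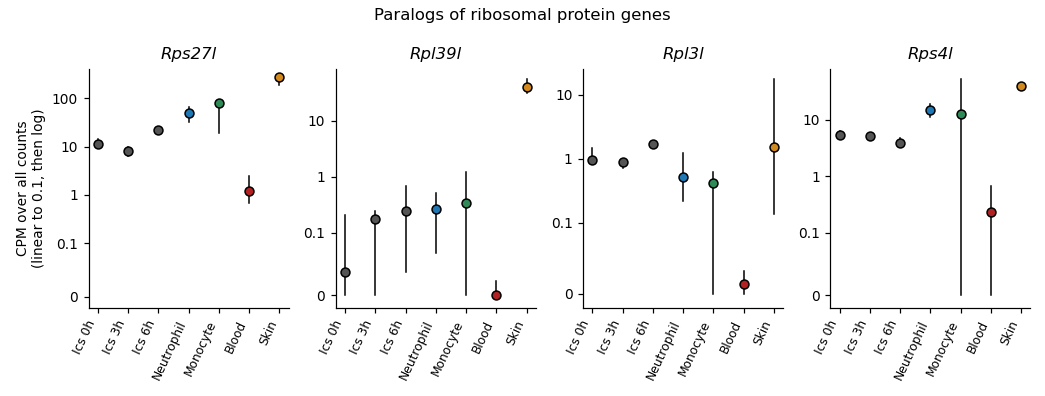
Level of the paralogs Rps27l, Rpl39l, Rpl3l and Rps4l in CPM over all counts, on an axis that is linear to 0.1 and logarithmic above. Points are medians and lines run from the lowest to the highest library of each Ics time and each tissue with matching markers. Rpl39l reaches 31.1 to 54.8 CPM in skin and stays below 1.3 CPM elsewhere.

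The fixed lists were also counted between tissues. Of 40 assembly genes tested, 5 were higher (12.5%) and 1 lower in monocytes than in neutrophils (edgeR), against 8.97% and 15.4% of all genes. In blood against neutrophils 13 were higher and 5 lower, against 28.7% and 35.5%, and in skin against monocytes 0 were higher and 13 lower, against 25.4% and 14.6%. In the last comparison Nop56 and Fbl, core proteins of the particles that methylate ribosomal RNA, were lower in skin by -2.10 ± 0.355 and -1.31 ± 0.241, and Ncl, nucleolin, by -1.70 ± 0.300, while 29 of 80 ribosomal protein genes were higher there. Of 78 mitochondrial ribosomal proteins, 8 were higher and 47 lower in blood than in neutrophils, where 44 of 80 cytosolic ones were higher. Of 38 translation factors, 12 were higher and 12 lower in blood, which is 31.58% each way, against 28.7% and 35.5% of all genes. Of the 7 ribosomal proteins outside the name pattern, Rack1, a signalling scaffold on the small subunit, was higher in blood by 0.87 ± 0.246.

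The study's own question was the effect of IVIG, tested within each labelled tissue with names as deposited. No member passed the test in blood (0 of 78), neutrophils, monocytes or skin (0 of 80 each), and neither did any other gene (edgeR, 0.0% called). At an unadjusted p under 0.05 there were 81 of 11339 genes in blood, 73 of 14033 in neutrophils, 286 of 14415 in monocytes and 157 of 16171 in skin, with 0, 2, 3 and 0 members among them. DESeq2 called 1, 0, 3 and 1 genes and no member. The members' median differences were 0.09, -0.15, 0.21 and 0.05 in blood, neutrophils, monocytes and skin. In neutrophils Rps18 had 165 ± 46.1 CPM under IVIG and 296 ± 230 under PBS (SD, n = 5 each), a difference of -0.85 ± 0.487 (edgeR adjusted p = 0.9999). PBS replicate 1, which carried blood markers, had 693 CPM and the other PBS libraries 120.2 to 272 CPM, and leaving out 1 library put the difference between -1.06 and -0.26. In monocytes Rpsa had 2787 ± 1208 CPM under IVIG (n = 3) and 1808 ± 360 under PBS (n = 5), a difference of 0.62 ± 0.412 (edgeR adjusted p = 0.9999), which lay between 0.22 and 0.87 leaving out 1 library. In skin Rplp0 had 1390 ± 1160 CPM under IVIG and 741 ± 193 under PBS (n = 3 each), a difference of 0.91 ± 0.895 (edgeR adjusted p = 1.0). The values were 579, 869 and 2722 CPM under IVIG and 927, 753 and 543 CPM under PBS, and the third IVIG and the first PBS library carried blood markers. Leaving out 1 library put the difference between -0.02 and 1.27. These groups include the libraries with markers of another tissue, and leaving those out called no member either. Tissue markers do not check the IVIG and PBS names. A series mark and number titled IVIG in neutrophils was titled PBS in monocytes and in blood. The lack of calls under these names therefore does not show that IVIG had no effect. The IVIG differences were compared between tissues for blood, neutrophils and monocytes, and no member passed (edgeR, 0 of 81 in each of 3 comparisons, with 1, 0 and 4 members at an unadjusted p under 0.05).

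Single values far from the rest of a group were counted. After each library's median over the 75 members with a median of at least 20 CPM was subtracted, none of their values in the Ics, neutrophil, monocyte or skin libraries lay more than 2 log2 units from the gene's median over the same kind of library (0 of 900, 600, 525 and 300 values). In blood 3 of 450 did: Rpl10 in PBS replicates 3 and 5 and Rps27 in IVIG replicate 1. In the 4 libraries with blood markers under another label 7 of 300 did, with a largest distance of 5.29 log2 units.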

How the data were processed

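The deposited table holds estimated counts (expected counts) per gene symbol for 46 libraries, and its deposited name calls them length-scaled. Kallisto 0.46.1 and GRCm38 are named in the submitters' processing notes, and the step from transcripts to genes is not given in the sources used here. The values keep each library's own total, and were rounded to whole numbers here. No other columns of sample values were in the table. Libraries were grouped by their titles. Genes were filtered with filterByExpr (minimum count 10) and tested with edgeR 4.0.16 (quasi-likelihood, TMM factors, R 4.3.3, limma 3.58.1) over all genes, with Benjamini-Hochberg adjusted p under 0.05. DESeq2 1.42.0, other scalings, added copy rows and left-out libraries were alternatives, of which library totals, added copy rows and the removal of mitochondrial counts were chosen after seeing the data, and the fits were tested on simulated data. Levels printed beside a test are CPM with the TMM factors of that fit.

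Tissue markers were checked in each library. A library with at least 10% haemoglobin counts was classed as blood, otherwise with Krt5 and Krt14 at 100 CPM or more together as skin, otherwise with S100a8 and S100a9 at 10000 CPM or more as neutrophil, and the remainder as monocyte. The labels' treatment field disagrees with the titles in some libraries and was not used, so the direction of IVIG holds for names as deposited.

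Genes named in a comparison are the 5 largest rises and 5 largest falls among called members with at least 5 CPM in the higher group, and in every comparison Rplp0, Rpsa, Rpl13a, Rps18, Rps6 and the tested paralogs Rpl3l, Rpl39l, Rps27l and Rps4l. Rpl10l, also named by the rule, did not reach the count minimum. Of each other list up to 4 called genes with the smallest p were eligible. The members and lists were chosen with earlier results of these data known. Whether replicates are separate animals or cultures is not labelled for each library, and p-values then measure only the spread among the libraries. The titles of the Ics libraries carry a number at each time, and the labels do not say what it marks. After removing group means, same-numbered libraries at 0 h and 3 h correlated at 0.1248 to 0.2241, all over the limit of 0.1 set for pairing, and other pairs at -0.1112 to -0.0076, so the fit with the number as a block was used beside that comparison. No 2 libraries held identical values. Single genes that the naming rule selects but the text and figures do not show are not reported here, and counts include them.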

Additional observations from a re-analysis of the deposited data

Results flagged for a closer look

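In 3 of 93 sets of 4 values tested, 1 library stood apart from the other 3 by more than Dixon's 95% limit, and chance alone flags about 1 set in 20. Rps6 was at 160.4 CPM in the first library at 0 h of the Ics experiment, against 130.3 to 133 in the others. Rpl13a was at 106.7 CPM in the third library at 3 h, against 139 to 144. Rps15a was at 83.12 CPM in the first library at 6 h, against 49.8 to 54.7. Over all 80 members and the 3 times, 25 of 240 sets (10.42%) passed the same limit, of which 9 were through the first library at 0 h, 6 through the third at 3 h and 8 through the first at 6 h.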

How the results depend on the processing

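Of 1250 values of single called genes under an alternative, 1073 kept direction and call, 153 kept the direction and missed the threshold, and 24 reversed; the cause was not tested except where copies were added. At 3 h against 0 h the members that fell numbered 1 with pseudogene rows, 0 with copies and 5 with library totals, where 3 rose; leaving out 1 library gave 16 to 40 rising (37 without the first 0 h library, 40 without the third 3 h library) and 2 to 3 falling. At 6 h against 3 h, 1 fell with no filter, pseudogene rows, copies or totals, 5 with the replicate block, and 19 rose with totals; leaving out 1 library gave 4 to 13 rising (4 without the third 3 h, 5 without the first 6 h, 13 without the first 3 h or the second 6 h library) and 1 to 2 falling. At 6 h against 0 h, 2 fell with copies and 18 rose with totals; leaving out 1 library gave 33 to 45 rising and 2 to 4 falling. The replicate block gave 29 rising and 2 falling at 3 h, 11 and 5 between 3 h and 6 h, and 43 and 4 at 6 h; same-numbered libraries correlated at 0.0723 to 0.2241 after removing group means, each best with its own number in 4 of 4 cases, with every pair over 0.1 only between 0 h and 3 h. At 3 h the block changed the call of Rplp0 (edgeR adjusted p = 0.04296). For monocytes against neutrophils the members higher were 62 with DESeq2, 53 with RLE factors, 50 without haemoglobin and mitochondrial genes, 4 as labelled, 6 (and 2 lower) without libraries of 25% or more mitochondrial counts, 0 with totals or with the block, and 14 to 42 leaving out 1 library, with 1 lower under no filter. For blood against neutrophils they were 28 higher and 10 lower with no filter, 3 lower with copies, 1 and 79 with totals, 26 and 11 with the block, 10 and 0 as labelled, and 36 to 46 higher and 4 to 6 lower leaving out 1 library. For skin against monocytes 1 was lower with DESeq2 and RLE factors, 0 with totals, the block or as labelled; 3 were higher with the block, 16 as labelled, and 11 to 39 higher and 1 to 3 lower leaving out 1 library.

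Reversed genes with copies added were Rpl5 (0.13 at 3 h, 0.22 at 6 h), Rpl27 (0.37 at 3 h, 0.17 at 6 h, 0.58 in skin), Rpl12 (-0.11), Rps27 (1.80) and Rps6 in blood (1.148). With pseudogene rows Rpl27 had 0.37, 0.17 and 0.61 and Rps6 1.148. With library totals Rps6 had -0.0344 at 3 h, and in blood Rpl10 had -0.91, Rps24 -1.78, Rpl41 -1.90, Rpl12 -1.83, Rplp0 -2.40, Rpl13a -2.08 and Rps18 -2.29. As labelled, Rpl6l had -0.63, Rps27l 0.39 and Rps6 0.17 in blood, and with the block Rpl3l had -0.27 in skin. The subunit ratio as a median over members gave log2 differences of 0.0081, -0.0388 and -0.0308 (3 h, 6 h against 3 h, 6 h), 0.0066, -0.2627 and -0.1030 (monocyte, blood, skin), and -0.0852 in skin with pseudogene rows. The ribosomal protein total differed by 0.5535 between blood and neutrophils without haemoglobin (0.6450 also without mitochondrial genes), against -3.0796 over all counts; without both, monocytes differed by 1.0321 and skin by 0.3811. Leaving out 1 library put that total at -0.0982 to 0.0141 (3 h), 0.0561 to 0.1669 (6 h against 3 h), 0.0280 to 0.1335 (6 h), 0.1454 to 0.5381 (monocyte), -3.2193 to -2.9253 (blood) and 0.8122 to 1.2049 (skin), and the ratio in blood at -0.0186 to 0.0740.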
